A study of Mus musculus with 7 samples.

Results

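Single-cell transcriptomes of the seminal vesicle were compared between C57BL/6J and FVB/NJ, which are both inbred laboratory mouse strains, at 3 months of age. Members were the 4 mice of that age that received no diet challenge in the multiplexed pools: C57BL/6J mice Y1 and Y2, and FVB/NJ mice Ctrl1 and Ctrl2. Cells with at least 500 detected genes and at most 10% of unique molecular identifiers (UMIs) from the mitochondrial genome were kept, which gave 2291 cells out of 40306 in all 23 mice of the series. Y1 contributed 355 cells, Y2 707, Ctrl1 1055 and Ctrl2 174, and no cell barcode was shared between these mice. UMIs were summed per mouse over secretory cells, taken as cells in which *Svs2*, *Svs4*, *Svs5* and *Svs6* together made up at least 30% of UMIs, and over all other cells.

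All 4 animals were wild-type males. The C57BL/6J mice ate 5P76 chow and shared 1 tag-multiplexed pool with animals of 20 and 28 months, some of them on rapamycin. The FVB/NJ mice ate the AIN-93G control diet and shared the other pool with mice on caloric restriction, a high fat or a low protein diet. Strain therefore coincides with pool, flow cell and diet, and these cannot be told apart in any difference below. The labels name the mice of a pool by strain only, so which animal is which was read from the names of the demultiplexed matrices and the study's methods. A sum of UMIs also does not separate fewer expressing cells from less RNA per cell.

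The seminal vesicle is an androgen-dependent accessory gland that supplies much of the seminal fluid. Its luminal epithelium is given over to a small set of secreted proteins, the seminal vesicle secretory (Svs) family, some of which are cross-linked into the copulatory plug. Basal cells, a fibroblast and smooth muscle stroma, vessels, nerves and resident immune cells lie around this epithelium. C57BL/6J and FVB/NJ carry different haplotypes of the major histocompatibility complex (MHC).

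Secretory cells numbered 55 in Y1, 207 in Y2, 124 in Ctrl1 and 16 in Ctrl2, and their UMI sums ran from 436056 in Ctrl2 to 10880725 in Y2. The other cells numbered 300, 500, 931 and 158 in the same order, with 1872223, 3839892, 4675108 and 535346 UMIs. The median secretory cell held 54006, 48516, 43505.5 and 20489 UMIs, so Ctrl2 was the shallowest library. *Svs* RNA was also present outside the secretory cells: its median share was 0.808% and 0.965% of UMIs in the other cells of Y1 and Y2, against 0.369% and 0.428% in Ctrl1 and Ctrl2. This level was higher in both C57BL/6J mice. Free RNA and undetected doublets are both possible sources of it, and neither was measured. Around the 30% limit, 23 cells lay between 30% and 35% and 12 cells between 25% and 30%. Cells of the other types were gated on at least 3 detected markers of a class and at least 2 more than of any other class, and no cell passed the gates for urothelium, epididymis or spermatids.

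In secretory cells, 18 genes were higher in C57BL/6J and 16 were higher in FVB/NJ at an adjusted p under 0.05 (edgeR quasi-likelihood test, 7287 genes). These calls were 0.247% and 0.22% of the genes tested. At an unadjusted p under 0.05, 728 genes (9.99%) differed, 5.74% higher in C57BL/6J and 4.25% higher in FVB/NJ. Levels are given as CPM, the UMIs of a gene per 1000000 UMIs of the sum, after TMM scaling, and differences are log2 values of C57BL/6J minus FVB/NJ. The genes that were higher in C57BL/6J included a chromatin remodeler, protease inhibitors and a kinase inhibitor, while those higher in FVB/NJ included a centromere protein, a lipid-metabolizing enzyme and a translation factor. The major secretory proteins were not among them. Of the 34 genes, 25 were also called with all 18 mice of the pools in the fit, and 17 by DESeq2. With a secretory limit of 20% or 50%, 33 or 10 of them were called. When the mice were thinned to the lowest UMI total, 3 were.

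*Chd9*, which encodes a chromodomain helicase, had the smallest adjusted p among the genes that were higher in C57BL/6J. Its level was 90.6 CPM in Y1 and 133 CPM in Y2, against 5.34 CPM in Ctrl1 and 9.31 CPM in Ctrl2. Both C57BL/6J mice stood above both FVB/NJ mice, and the log2 difference was 4.25 ± 0.34 (SE; adjusted p = 0.00156). *Spink8*, a Kazal-type serine protease inhibitor that marks the prostate-like epithelium, was at 105 and 102 CPM in Y1 and Y2 and at 20.8 and 21.0 CPM in Ctrl1 and Ctrl2. The values within each strain were nearly the same, and the log2 difference was 2.31 ± 0.22 (adjusted p = 0.00455). *Ramp1*, whose product makes the calcitonin receptor-like receptor respond to calcitonin gene-related peptide, was at 35.9, 48.0, 8.02 and 11.6 CPM in Y1, Y2, Ctrl1 and Ctrl2 (log2 difference 2.30 ± 0.29, adjusted p = 0.0123). *Khdrbs3*, an RNA-binding protein, and *Pla2g12b*, a member of the secreted phospholipase A2 family, were higher by 2.21 and 2.13 on the same log2 scale.

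**Figure D1:**
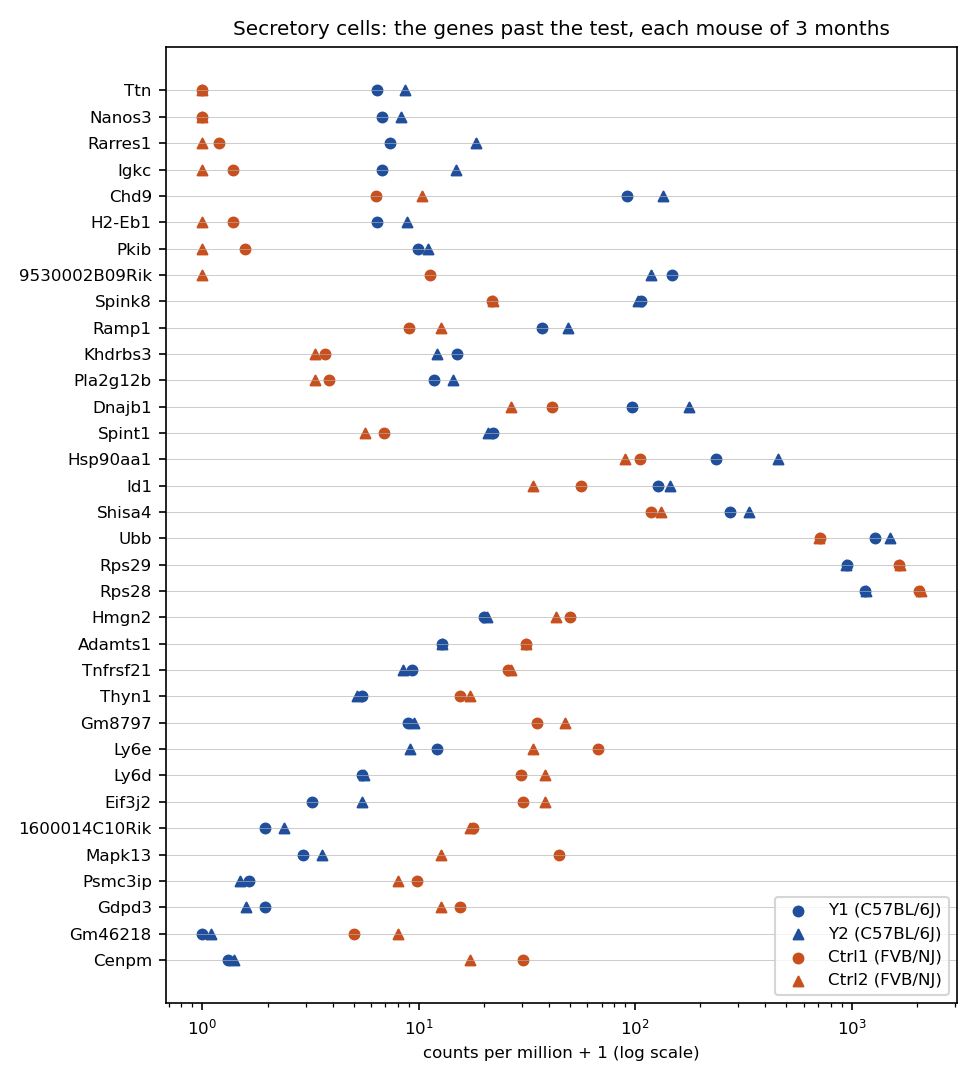
Levels of the 34 genes that differed between strains in secretory cells, as CPM plus 1 on a log axis, with 1 point for each of the 4 mice. *Chd9* was at 90.6 and 133 CPM in the C57BL/6J mice and at 5.34 and 9.31 CPM in the FVB/NJ mice, whereas *Rps28* and *Rps29* differed by less than 1 on the log2 scale.

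Several genes of low abundance were nearly absent from FVB/NJ secretory cells. *Pkib*, an inhibitor of protein kinase A, had 28 UMIs in Y1 and 101 in Y2, against 3 in Ctrl1 and 0 in Ctrl2. The ratio of the pooled levels was 17.3 (95% counting interval 5.78 to 84.8) and the adjusted p was 0.0190. *Rarres1*, a gene that responds to retinoids, had 20, 175, 1 and 0 UMIs in Y1, Y2, Ctrl1 and Ctrl2, a ratio of 78.3 (13.9 to 3107). The very wide interval reflects the single UMI in FVB/NJ. *Ttn*, which encodes the muscle protein titin, had 17 and 77 UMIs in Y1 and Y2 and none in either FVB/NJ mouse, and *Nanos3*, an RNA-binding protein of germ cells, had 18 and 73 and none. With a floor of 3 UMIs over both FVB/NJ sums, *Ttn* was at least 12.6-fold and *Nanos3* at least 12.2-fold higher in C57BL/6J. Such intervals and floors cover counting error only.

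Genes typical of immune cells were in this set too. The immunoglobulin light chain gene *Igkc*, a product of plasma and B cells, had 18 and 140 UMIs in Y1 and Y2 against 2 and 0 in Ctrl1 and Ctrl2. The class II gene *H2-Eb1* had 17 and 79 UMIs against 2 and 0. No B cell marker was tested in secretory cells, while the 1 tested in the other cells had a log2 difference of 3.45. The class II genes of secretory cells did not share 1 direction. Of 4 class II genes tested, only *H2-Eb1* passed, and another was higher in FVB/NJ at an unadjusted p under 0.05. The median over these 4 was -2.04, and *Cd74*, whose values are given at the end, was high in Ctrl2 only. The 3 macrophage markers tested had a median of -1.68, and none had an unadjusted p under 0.05. In the other cells of Y1, Y2, Ctrl1 and Ctrl2, *Igkc* stood at 105, 44.2, 4.66 and 1.84 CPM, so it was also more abundant around the secretory cells of C57BL/6J, although it did not pass there (adjusted p = 0.0629). The part of free RNA from immune cells in both values was not tested.

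Among the genes that were higher in FVB/NJ secretory cells, *Eif3j2*, a subunit of translation initiation factor eIF3, was at 29.4 CPM in Ctrl1 and 37.3 CPM in Ctrl2, against 2.23 CPM in Y1 and 4.48 CPM in Y2 (log2 difference -3.07 ± 0.34, adjusted p = 0.0061). *Ly6d* and *Ly6e*, which encode small membrane-anchored proteins of the Ly6 family, were lower in C57BL/6J by log2 differences of -2.77 and -2.57. *Ly6d* was at 4.45 and 4.57 CPM in Y1 and Y2 and at 28.8 and 37.3 CPM in Ctrl1 and Ctrl2. *Tnfrsf21*, a death-domain receptor, was at 8.27, 7.46, 24.8 and 25.6 CPM in Y1, Y2, Ctrl1 and Ctrl2, and its log2 difference was -1.68 ± 0.26. The extracellular protease gene *Adamts1* (-1.37), the nucleosome-binding gene *Hmgn2* (-1.27) and the ribosomal protein genes *Rps28* (-0.83) and *Rps29* (-0.81) differed by smaller amounts.

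The steepest differences in this direction were in genes with few UMIs in Ctrl2, which were picked out after their values were seen. *Cenpm*, a centromere protein, had 154 UMIs in Ctrl1 and 7 in Ctrl2, against 1 in Y1 and 4 in Y2 (log2 difference -6.02 ± 0.45, adjusted p = 0.00146). *Gdpd3*, a phosphodiesterase that acts on lysophospholipids, had 76 and 5 UMIs against 3 and 6. *Psmc3ip*, a partner of the meiotic recombinases, had 46 and 3 UMIs against 2 and 5. *Mapk13*, which encodes the p38 delta kinase, had 227 and 5 UMIs against 6 and 26. The raw counts overlap between strains for the last 3 of these because the mice differ in depth. On the CPM scale the groups did not overlap, with *Mapk13* at 1.91 and 2.59 CPM in Y1 and Y2 and at 43.3 and 11.6 CPM in Ctrl1 and Ctrl2. Its strain difference was more negative in secretory than in other cells (by -1.89 on the log2 scale, adjusted p = 0.0071).

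None of the 16 genes on the list of secretory products passed the adjusted threshold in secretory cells by edgeR. At an unadjusted p under 0.05, 7 were higher in C57BL/6J and 1 in FVB/NJ, beside 5.74% and 4.25% of all genes. *Svs5*, the most abundant, took up 206970 and 248340 CPM in Y1 and Y2 and 243970 and 289710 CPM in Ctrl1 and Ctrl2, with overlapping ranges and a log2 difference of -0.23 ± 0.11. *Svs4* differed by -0.21 ± 0.09 and *Svs6* by 0.13 ± 0.16. *Svs2*, a substrate of the plug-forming transglutaminase, was at 144820 and 150450 CPM against 112580 and 83203 CPM (log2 difference 0.59 ± 0.13, adjusted p = 0.116). The median of the list was 0.32, beside 0.03 over all genes tested. *Svs2*, *Svs4*, *Svs5* and *Svs6* define the secretory cells, so their values there are not independent of that limit.

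Of the prostate-like products, 6 of 8 were tested and 1 passed (beside 0.247% of all genes), which was *Spink8*. All 6 had an unadjusted p under 0.05 and were higher in C57BL/6J, beside 5.74% of all genes. The list median was 1.96 beside 0.03 over all genes. *Tgm4*, the transglutaminase of the plug, was at 287 and 202 CPM in Y1 and Y2 and at 92.8 and 2.33 CPM in Ctrl1 and Ctrl2, and *Pbsn*, which encodes probasin, was at 112 and 113 CPM against 54.6 and 6.99 CPM. Neither passed the adjusted test. Cells that passed the prostate-like gate made up 3.66% and 7.92% of kept cells in Y1 and Y2 and 3.32% and 1.15% in Ctrl1 and Ctrl2, so their share was also higher in both C57BL/6J mice, and its part in these levels was not tested.

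Many of the immediate early and stress genes respond to tissue dissociation. Of 26 on this list tested, 2 were higher in C57BL/6J and none in FVB/NJ, beside 0.247% and 0.22% of all genes. These were the chaperone genes *Hsp90aa1*, at 236 and 456 CPM in Y1 and Y2 against 104 and 88.5 CPM in Ctrl1 and Ctrl2, and *Dnajb1*, with a log2 difference of 1.94. At an unadjusted p under 0.05, 14 of the list were higher in C57BL/6J and 2 in FVB/NJ, beside 5.74% and 4.25% of all genes. The ubiquitin gene *Ubb* was at 1282 and 1502 CPM against 712 and 708 CPM (log2 difference 0.97 ± 0.15). Of 81 ribosomal protein genes tested, 2 were higher in FVB/NJ, beside 0.22% of all genes. In that direction 22 had an unadjusted p under 0.05, beside 4.25% of all genes. No member of the MHC class I, interferon, endoplasmic reticulum folding, redox, sterol, androgen response, complement or mucosal secretion lists passed in secretory cells, and neither did any mitochondrial gene.

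Among the other cells, 7 genes were higher in FVB/NJ (0.062% of 11282 genes) and none was higher in C57BL/6J at an adjusted p under 0.05. By DESeq2 these counts were 81 and 74. At an unadjusted p under 0.05, edgeR gave 1469 genes (13%), of which 672 (5.96%) were higher in C57BL/6J and 797 (7.06%) in FVB/NJ. The count without Y1 was 419, without Y2 67 and without Ctrl2 21. Of the 7 genes, 4 were also called in secretory cells: *Gdpd3*, *Cenpm*, *1600014C10Rik* and *Eif3j2*. The others included *BC023719* and the smooth muscle marker *Actg2*.

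Of the 4 mice, *BC023719* was detected in both FVB/NJ mice and in neither C57BL/6J mouse. It had 145 UMIs in Ctrl1 and 24 in Ctrl2 and none in Y1 or Y2, which made it at least 61.8-fold higher in FVB/NJ with a floor of 3 UMIs over both C57BL/6J sums. The gene is annotated as an antisense transcript at chr17:36111426-36117121 on the plus strand (GRCm38), in the class I part of the MHC. The sources used here do not state whether strand was used in counting, and the part of reads from the opposite strand was not tested. Across the mice of both pools and 3 single libraries, with CPM taken here without TMM scaling, *BC023719* reached at most 0.446 CPM in the 10 mice of the C57BL/6J pool. It ranged from 30.5 to 44.8 CPM in the 8 mice of the FVB/NJ pool and from 45.3 to 51.9 CPM in 3 FVB/NJ mice that were each run as a single library on a control, high fat or low protein diet. The groups did not overlap at any age or diet. This wider set includes the 4 mice in which the genes were called, so it is not independent of their selection.

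*Gdpd3* (chr7:126766334-126775649) was at 145 CPM in Ctrl1 and 260 CPM in Ctrl2, against 2.72 CPM in Y1 and 2.82 CPM in Y2. Its log2 difference was -6.13 ± 0.43 (adjusted p = 0.00585). Across the wider set of mice it was at 0.398 to 9.42 CPM in the C57BL/6J pool, 140 to 292 CPM in the FVB/NJ pool and 162 to 226 CPM in the single FVB/NJ libraries. *Gdpd3* was the gene called in the most cell groups, 5 of the 6 examined, although the gates are part of the other cells and are not independent of them.

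*1600014C10Rik*, a protein-coding gene at chr7:38183217-38197568, was at 4.90 and 4.11 CPM in Y1 and Y2 and at 94.1 and 92.0 CPM in Ctrl1 and Ctrl2 (log2 difference -4.39 ± 0.30, adjusted p = 0.00585). Over the wider set it was at 2.15 to 7.92 CPM in the C57BL/6J pool, 22.9 to 121 CPM in the FVB/NJ pool and 115 to 247 CPM in the single libraries. In the basal gate it had 0 and 1 UMIs in Y1 and Y2 and 381 and 42 in Ctrl1 and Ctrl2, a ratio of 86.2 (95% counting interval 15.4 to 3414). *Cenpm* was at 2.18 and 1.28 CPM against 41.7 and 25.8 CPM in the other cells, and over the wider set at 0.796 to 9.05, 24.4 to 53.6 and 73.3 to 93.5 CPM in the same order of groups. For *Gdpd3*, *1600014C10Rik* and *Cenpm* the ranges of the strains did not overlap in these pools and single libraries. The pools again include the 4 mice in which these genes were called.

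**Figure D2:**
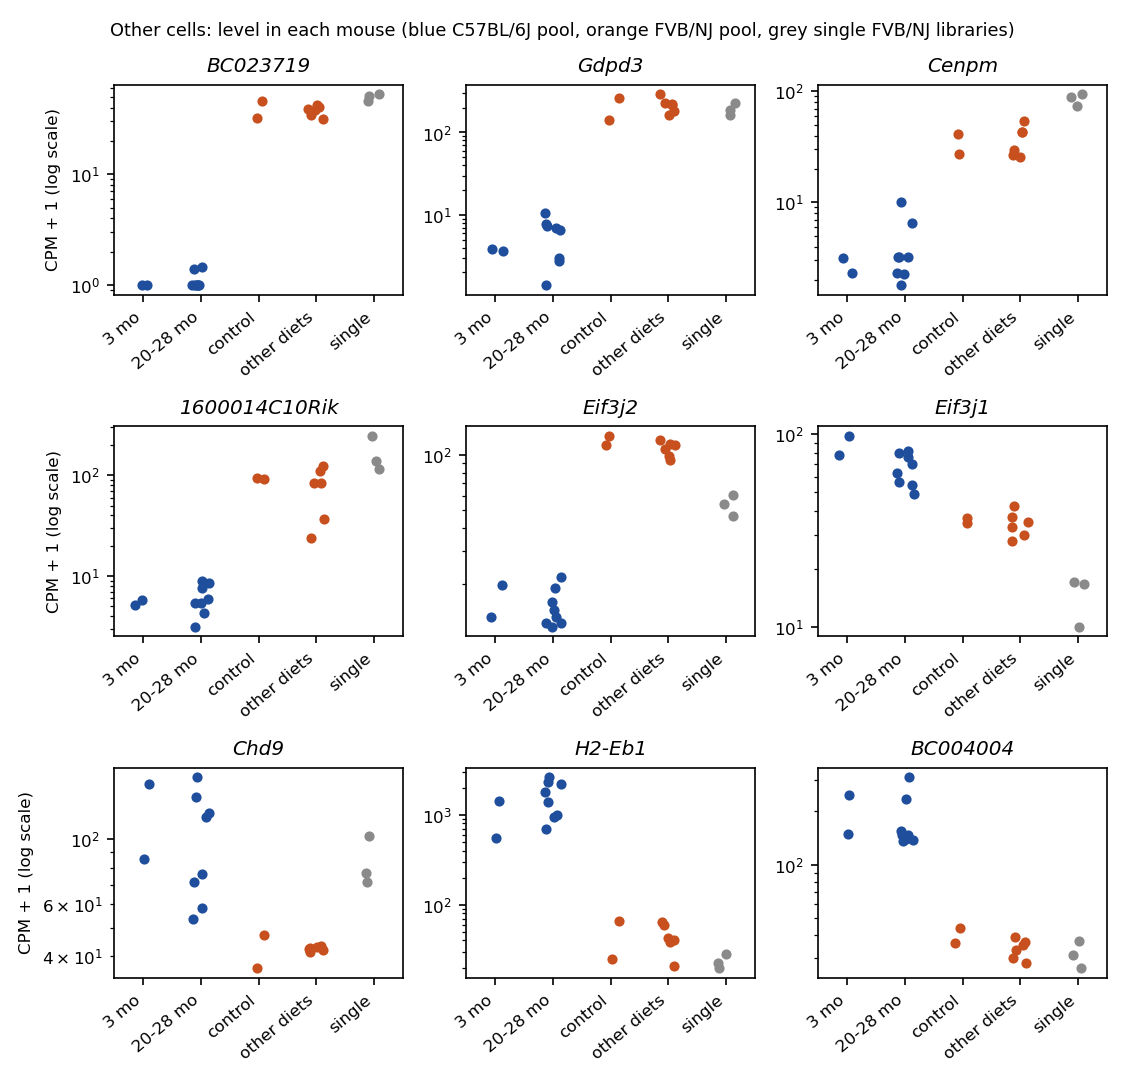
Levels of 9 genes in the other cells of each mouse, as CPM plus 1 on a log axis, for the C57BL/6J pool (3 months, and 20 or 28 months including rapamycin), the FVB/NJ pool (control and other diets) and 3 single FVB/NJ libraries. *BC023719*, *Gdpd3*, *Cenpm*, *1600014C10Rik*, *Eif3j2* and *H2-Eb1* have no overlap between strains, while *Chd9* overlaps with 52.4 to 161 CPM in C57BL/6J mice and 70.4 to 101 CPM in the single FVB/NJ libraries.

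*Eif3j2* and *Eif3j1* are near-identical copies of 1 subunit gene, so reads can be split between them and both values are uncertain. In the other cells *Eif3j2* was at 12.5 and 18.5 CPM in Y1 and Y2 and at 131 and 110 CPM in Ctrl1 and Ctrl2 (log2 difference -2.94 ± 0.30, adjusted p = 0.0388). *Eif3j1* went the other way, at 99.1 and 75.98 CPM against 37.1 and 33.1 CPM (log2 difference 1.29 ± 0.27, adjusted p = 0.103), and did not pass. Over the wider set *Eif3j1* was at 48.0 to 97.2 CPM in the C57BL/6J pool, 27.0 to 41.6 CPM in the FVB/NJ pool and 9.09 to 16.2 CPM in the single libraries. The ranges of the strains did not overlap for either copy and ran in opposite directions. The part of read assignment in this was not tested.

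*Chd9* behaved differently in the 2 sums. Its log2 difference was 4.25 in secretory cells and 1.47 ± 0.34 in the other cells (86.0, 150, 47.9 and 35.0 CPM in Y1, Y2, Ctrl1 and Ctrl2, adjusted p = 0.13). The difference between these differences was 2.88 and passed the test across cell types (adjusted p = 4.76e-09). In that test 146 of 11743 genes (1.24%) passed, of which 107 had the higher value in secretory cells, or 61 of 97 without TMM scaling. *Rarres1* (6.30), *Pkib* (4.39) and *Ramp1* (1.91) also passed, with a larger C57BL/6J excess in secretory cells. *Mapk13* (-1.89) passed with a larger FVB/NJ excess there, while *Actg2* (5.49) passed with its FVB/NJ excess in the other cells. *Svs4* (-1.01) and *Svs5* (-0.92) passed as well, but both are among the genes that define the split, so their values are no result here. In basal cells *Chd9* was again higher in C57BL/6J, at 363 and 549 CPM in Y1 and Y2 against 63.0 and 66.1 CPM in Ctrl1 and Ctrl2 (log2 difference 2.85 ± 0.32, adjusted p = 0.0186).

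Macrophages separated the class II genes, whose products present peptides to helper T cells. *H2-Eb1*, the beta chain of the I-E molecule, was at 7798 CPM in Y1 and 7893 CPM in Y2, against 411 CPM in Ctrl1 and 322 CPM in Ctrl2. The log2 difference was 4.41 ± 0.28 (adjusted p = 0.00381), and this was the only gene of 2344 tested that was higher in C57BL/6J macrophages (0.0427%), with 2 higher in FVB/NJ (0.0853%). The partner genes gave other values. *Cd74*, the invariant chain, was at 30635, 31276, 31346 and 31508 CPM in Y1, Y2, Ctrl1 and Ctrl2, a log2 difference of -0.02 ± 0.17. *H2-Aa* differed by 0.26 ± 0.22 and *H2-Ab1*, the beta chain of the I-A molecule, by -0.33 ± 0.21. These 3 genes did not pass, and 1 of 9 class II genes tested did.

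*H2-Eb1* was thus higher in C57BL/6J in secretory cells and macrophages, and in fibroblasts below. In all other cells together it was at 1446 and 549 CPM in Y1 and Y2 and at 24.6 and 64.4 CPM in Ctrl1 and Ctrl2, and missed the threshold there (adjusted p = 0.0629). Across the wider set it was at 557 to 2624 CPM in the C57BL/6J pool, 19.7 to 65.4 CPM in the FVB/NJ pool and 18.7 to 27.3 CPM in the single libraries. Reads were assigned against mm10, the genome of C57BL/6J, and the part of read assignment in the levels of these MHC region genes was not tested. *H2-Eb1* lies at chr17:34305867-34316674 in the class II part of the MHC. *BC004004*, at chr17:29268788-29314065, showed the same direction, with 136 to 311, 27.0 to 43.0 and 25.2 to 36.4 CPM in these groups. In macrophages *Cd207*, which encodes langerin of Langerhans-type dendritic cells, had 1 and 0 UMIs in Y1 and Y2 and 30 and 26 in Ctrl1 and Ctrl2 (ratio 139, 95% counting interval 24.02 to 5603). *Gdpd3* was the second gene higher in FVB/NJ macrophages, at 379 and 439 CPM in Ctrl1 and Ctrl2 against 12.8 and 14.0 CPM. Leaving out Y1, Y2 or Ctrl1 gave 164, 65 and 53 calls in macrophages in place of 3.

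In the fibroblast gate, of 5017 genes tested, 46 were higher in C57BL/6J (0.917%) and 16 were higher in FVB/NJ (0.319%), from 85, 98, 144 and 27 cells in Y1, Y2, Ctrl1 and Ctrl2. Interferon-stimulated genes, which are induced after type I or type II interferon, were examined as a list: of 36 listed genes 29 were tested, and 8 of these were higher in C57BL/6J and none in FVB/NJ. At an unadjusted p under 0.05, 22 of the 29 were higher in C57BL/6J, beside 7.45% of all genes, and the list median was 1.59 beside 0.02. Without Ctrl2, which had 27 cells, no gene passed in this gate by edgeR, with 494 at an unadjusted p under 0.05. Without Y1 or Y2 the count was 160 or 210 in place of 62.

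*Ifit2* and *Ifit3*, which encode antiviral RNA-binding proteins, differed by more than 3 on the log2 scale. *Ifit2* was at 516 and 436 CPM in Y1 and Y2 against 56.9 CPM in Ctrl1 and none in Ctrl2 (log2 difference 3.42 ± 0.47, adjusted p = 0.00934). *Ifit3* was at 220 and 161 CPM against 20.7 and 13.5 CPM. The ubiquitin-like modifier *Isg15* was at 899 and 453 CPM against 171 and 108 CPM. The transcription factor *Irf7*, which amplifies the response, was at 181 and 118 CPM against 31.1 and 27.1 CPM. *Cxcl10*, a chemokine that attracts activated T cells, was the most abundant of the 8 at 2820 and 2770 CPM in Y1 and Y2, against 758 and 352 CPM in Ctrl1 and Ctrl2 (log2 difference 2.26 ± 0.31, adjusted p = 0.00934). The other 3 were *Ifi47* (3.32), *Ifi203* (2.25) and *Ifi27l2a* (2.09). Both C57BL/6J mice stood above both FVB/NJ mice for each of these 8 genes. They were picked by the adjusted test on the same mice, so this adds no further result.

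Promoters of these genes are shown because the family is classically controlled through the interferon-stimulated response element, a binding site of interferon regulatory factors. The windows run from 250 bases before to 50 bases after the transcription start (RefSeq, GRCm38.p6). Capitals mark matches to GAAA, any 2 bases and GAAA again. Matches on the other strand read TTTC, any 2 bases and TTTC, and matches may overlap. *Ifit3* (chr19:34583279-34583578, plus strand) held 2 matches, the first beginning 156 bases before the start. *Isg15* (chr4:156200769-156201068, minus strand) held 3, from 78 bases before the start. *Cxcl10* (chr5:92348840-92349139, minus strand) held 1, at 213 bases before the start.
Ifit3: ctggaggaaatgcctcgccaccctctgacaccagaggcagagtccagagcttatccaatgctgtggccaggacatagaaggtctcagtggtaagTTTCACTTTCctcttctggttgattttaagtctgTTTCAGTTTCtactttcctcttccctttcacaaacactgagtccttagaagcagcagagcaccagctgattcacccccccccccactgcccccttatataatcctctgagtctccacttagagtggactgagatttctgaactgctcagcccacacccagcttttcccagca
Isg15: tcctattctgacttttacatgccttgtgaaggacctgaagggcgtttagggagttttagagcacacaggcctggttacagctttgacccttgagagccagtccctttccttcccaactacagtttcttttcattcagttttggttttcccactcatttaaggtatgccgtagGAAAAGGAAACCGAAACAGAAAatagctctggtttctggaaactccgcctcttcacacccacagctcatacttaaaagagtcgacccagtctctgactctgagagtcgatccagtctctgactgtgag
Cxcl10: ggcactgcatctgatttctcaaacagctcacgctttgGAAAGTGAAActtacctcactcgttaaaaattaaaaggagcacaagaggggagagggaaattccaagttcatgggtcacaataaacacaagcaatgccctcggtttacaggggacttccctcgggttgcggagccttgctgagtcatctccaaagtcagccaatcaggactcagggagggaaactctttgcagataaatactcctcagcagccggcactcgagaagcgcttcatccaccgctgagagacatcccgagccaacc
The motif was found in a window of 4 of the 7 called genes that had one (57.1%) and of 16 of 26 listed genes with a window (61.5%), beside 1079 of 27025 genes (3.99%). The windows of *Ifit2*, *Irf7* and *Ifi47* did not hold these letters. A match is a description of sequence and not evidence of binding in these cells.

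The same list was described in the other sums. In all other cells 35 listed genes were tested and none passed in edgeR, while 21 had an unadjusted p under 0.05, all of them higher in C57BL/6J (beside 5.96% of all genes), and the median was 1.34 beside 0.03. *Ifit3* had the largest difference of those named here, at 125 and 47.5 CPM in Y1 and Y2 against 2.88 and 7.36 CPM in Ctrl1 and Ctrl2 (log2 difference 4.52 ± 0.65, adjusted p = 0.0629). In secretory cells 17 were tested, none passed, and 12 had an unadjusted p under 0.05 and were higher in C57BL/6J (beside 5.74% of all genes). In macrophages 23 were tested, none passed, and 6 did so (beside 4.48%). In the T/NK gate 7 were tested, 4 had an unadjusted p under 0.05 in that direction and 1 passed (beside 1.46% of all genes). In the basal gate 5 were tested, none had an unadjusted p under 0.05 in either direction by edgeR, and the median was 0.02 beside 0.01 over all genes.

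**Figure D3:**
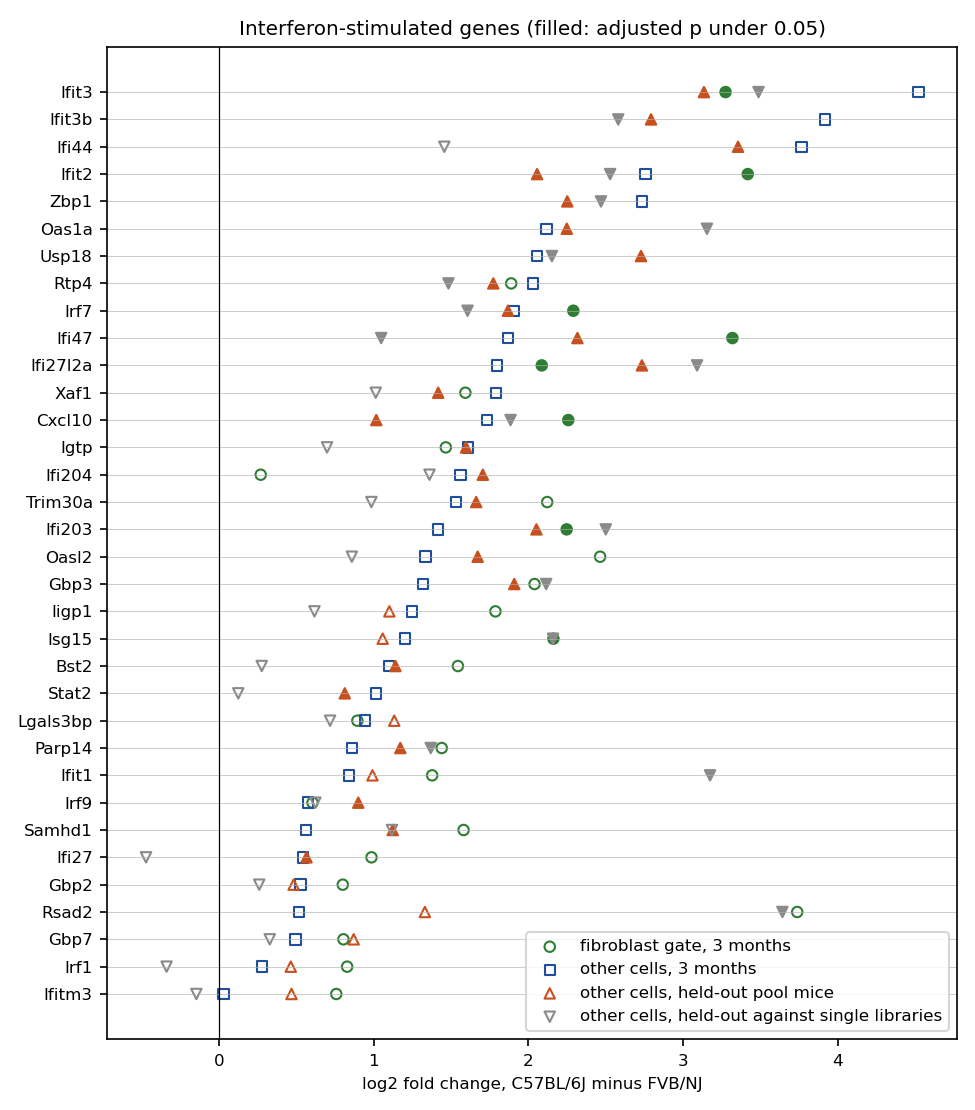
Log2 difference between strains (C57BL/6J minus FVB/NJ) for genes of the interferon list in the fibroblast gate, in all other cells, and in the other cells of held-out mice of the pools and of single FVB/NJ libraries. Filled points have an adjusted p under 0.05, which 8 genes reached in the fibroblast gate, and most points lie above 0.

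Other groups also moved in the fibroblast gate. Of 14 class II genes 5 were tested, and 2 were higher in C57BL/6J (beside 0.917% of all genes): *Cd74* was at 658 and 266 CPM in Y1 and Y2 against 12.9 and 27.1 CPM in Ctrl1 and Ctrl2, and *H2-Eb1* had 59 and 22 UMIs against none, at least 16.0-fold. *Cxcl9*, another chemokine induced by interferon gamma, had 41 and 29 UMIs against none, at least 13.8-fold. Complement *C3* was at 627 and 500 CPM against 69.9 and 54.1 CPM (log2 difference 3.09 ± 0.32, adjusted p = 0.00383), and the anticoagulant receptor *Thbd* differed by 2.47. The iron carrier gene *Trf* was at least 9.86-fold and *Plekhs1* at least 8.87-fold higher in C57BL/6J.

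Some of these genes mark subsets of stromal or mesothelial cells. *Msln* and *Upk3b*, both markers of mesothelium, had 17 and 71 UMIs in Y1, 23 and 37 in Y2, and 0 and at most 1 in Ctrl1 and Ctrl2. *Pi16*, a marker of adventitial fibroblasts, was at 407 and 208 CPM against 20.7 and 54.1 CPM. Of the 8 fibroblast markers, 6 had an unadjusted p under 0.05 and were higher in FVB/NJ, beside 5.72% of all genes. Their median was -0.88. These 8 markers define the gate and selected its cells. Their count and median are therefore not independent of the gate and are no result here. The cells gated as fibroblasts carried a median of 4 of the 8 markers, and 134 of the 354 cells lay just inside the gate. The part of subset composition in the strain difference was not tested.

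In FVB/NJ fibroblasts *Gdpd3* and *Eif3j2* were again higher, by log2 differences of -5.90 and -3.51. The acute-phase protease inhibitor *Serpina3n* was at 36.3 and 64.1 CPM in Y1 and Y2 against 225 and 230 CPM in Ctrl1 and Ctrl2 (log2 difference -2.17 ± 0.34). The splicing factor *Srsf2* (-1.63) and the chemokine *Cxcl12* (-1.35), which retains leukocytes in the stroma, were lower in C57BL/6J too. The epithelial genes *Epcam*, *Cldn4* and *Tspan8* were also higher in FVB/NJ in this gate. *Cldn4* was at 20.7 and 25.6 CPM against 197 and 122 CPM, and basal epithelial cells were more frequent in both FVB/NJ mice, as given below. Their part in these values was not tested.

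In the basal gate 10 genes were higher in C57BL/6J (0.323% of 3099 genes) and 1 was higher in FVB/NJ (0.0323%), from 21, 35, 312 and 25 cells in Y1, Y2, Ctrl1 and Ctrl2. Beside *Chd9*, 8 of the 10 encode secreted products of the gland. Of 15 listed secretory products tested, 7 were higher in C57BL/6J: *Svs4*, *Spink1*, *Ceacam10*, *Svs6*, *Svs3a*, *Sva* and *Spinkl*. *Svs4* was at 8024 and 9300 CPM in Y1 and Y2 against 3117 and 2538 CPM in Ctrl1 and Ctrl2, and *Sva* was at 1315 and 1535 CPM against 223 and 298 CPM. Listed products also differed in other gates. In the T/NK gate 4 of 13 tested passed, beside 1.46% of all genes. In the macrophage gate 14 of 14 tested had an unadjusted p under 0.05 in the C57BL/6J direction, beside 4.48% of all genes, with a median of 2.46 and none passing edgeR's adjusted test. The median share of *Svs* UMIs in other cells, 0.808% and 0.965% against 0.369% and 0.428%, moved with these values. Without Ctrl1 no gene passed in the basal gate by edgeR (142 at an unadjusted p under 0.05), and the count was 207 without Y1, 134 without Y2 and 26 without Ctrl2.

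The T/NK gate held 26, 54, 39 and 13 cells in Y1, Y2, Ctrl1 and Ctrl2. Of 1441 genes tested, 21 were higher in C57BL/6J (1.46%) and 18 were higher in FVB/NJ (1.25%). *Mt1* and *Mt2*, the metallothioneins that bind zinc and copper, were at 3854 and 874 CPM in Y1, 1710 and 515 CPM in Y2, 319 and 87.9 CPM in Ctrl1 and 244 and 40.7 CPM in Ctrl2. *Mt1* differed by 3.21 ± 0.43 on the log2 scale (adjusted p = 0.0063). The cysteine protease *Ctsl*, the antiviral membrane protein *Ifitm3* and the matrix protein *Mgp* were higher as well, as were the stress genes *Atf3*, *Hspa1a* and *Nfkbia*. *Mgp* and *Ctsl* are abundant in stroma and macrophages, and *Svs2*, *Svs4*, *Svs5* and *Svs6* also passed. The part of RNA from other cells in this comparison was not tested. The counts were 80 without Ctrl1 and 87 without Ctrl2.

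In the same T/NK cells the class II genes *H2-Ab1*, *Cd74* and *H2-Aa* were higher in FVB/NJ by log2 differences of -3.54, -3.27 and -2.69. *Cd74* was at 275 and 83.0 CPM in Y1 and Y2 and at 2219 and 651 CPM in Ctrl1 and Ctrl2. Its direction was the reverse of that in fibroblasts, and the difference between the gates was not tested. *Gdpd3* had 16 and 12 UMIs in Ctrl1 and Ctrl2 and none in Y1 and Y2, at least 14.4-fold. *Ly6e* was lower in C57BL/6J here (-2.55), as in secretory cells. Of 80 ribosomal protein genes tested, 7 were higher in FVB/NJ (beside 1.25% of all genes), among them *Rps28* (-0.68) and *Rps29* (-0.77).

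The cell classes took different shares of the kept cells. Basal cells made up 5.92% of cells in Y1 (exact binomial 95% interval 3.70 to 8.90) and 4.95% in Y2, against 29.6% in Ctrl1 and 14.4% in Ctrl2. Smooth muscle made up 1.13% and 0.707% against 6.64% and 9.20%. The groups did not overlap for these classes, but an exact permutation test of 2 mice against 2 cannot give a two-sided p below 0.333. Endothelial cells were at 1.41% and 3.54% against 4.83% and 7.47%. Schwann cells, the glia of peripheral nerve, made up 0% and 0.141% in C57BL/6J and 0.853% and 1.15% in FVB/NJ. For Y1, 0 of 355 cells allows a share of up to 0.845%, so this class was not separable at this depth. *Actg2*, a smooth muscle actin, had 7 UMIs in Y1, 7 in Y2, 302 in Ctrl1 and 90 in Ctrl2 in the other cells, in the same direction as the smooth muscle share.

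Secretory cells took 15.5% and 29.3% of kept cells in Y1 and Y2 and 11.8% and 9.20% in Ctrl1 and Ctrl2. Macrophages took 17.5% and 8.91% against 3.98% and 12.1%, fibroblasts 23.9% and 13.9% against 13.6% and 15.5%, and T/NK cells 7.32% and 7.64% against 3.70% and 7.47%. The values of the strains overlapped for macrophages, fibroblasts and T/NK cells. Cells that passed no gate were 19.9% to 22.5% in the 4 mice.

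**Figure D4:**
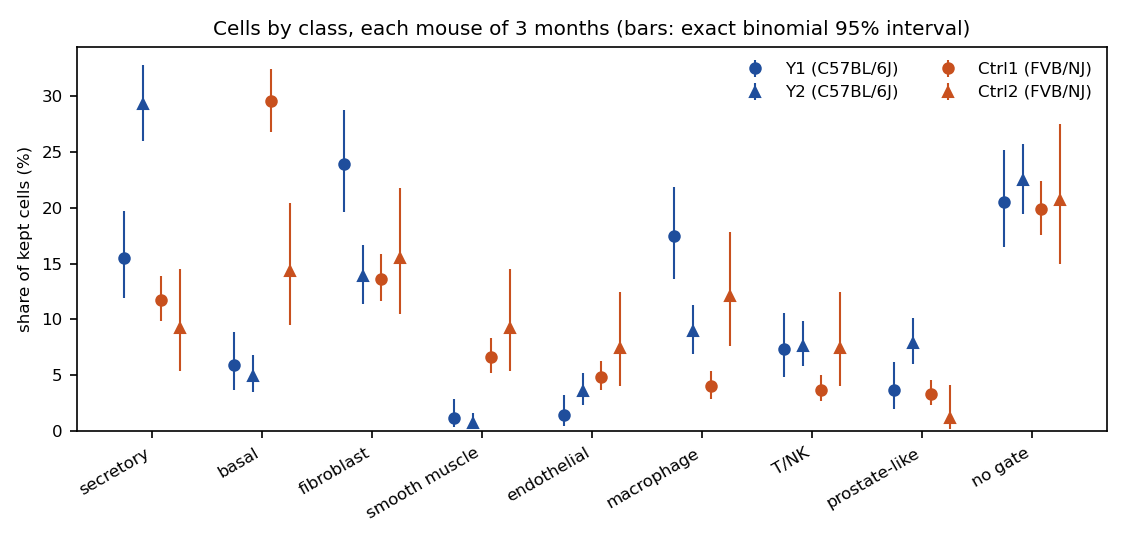
Share of kept cells in each class, in percent, for the 4 mice, with exact binomial 95% intervals that cover counting error only. Basal cells were at 5.92% and 4.95% in C57BL/6J and 29.6% and 14.4% in FVB/NJ, while fibroblasts overlapped.

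Mice that were not used to find these genes were then examined. The held-out C57BL/6J mice were 4 animals of 20 and 28 months without rapamycin (2326 cells), compared with 6 FVB/NJ mice of the diet pool (4077 cells) and separately with the 3 single FVB/NJ libraries (11728 cells). In these comparisons age, diet or library type differ as well as strain, and both use the same C57BL/6J mice. The held-out pool mice come from the same 2 pools as the mice of 3 months. Strain coincides with pool and flow cell there too. In the same pools, edgeR called 130 genes higher in C57BL/6J (2.55%) and 90 higher in FVB/NJ (1.77%) in secretory cells, and 857 (7.59%) and 737 (6.52%) in other cells. Without TMM scaling these were 80 and 33, and 642 and 1019. Against the single libraries the counts were 1586 (18.8%) and 1247 (14.8%) in secretory cells and 1242 (12%) and 1139 (11%) in other cells, or 5091 and 163, and 942 and 1790, without TMM scaling.

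Of the 18 genes higher in C57BL/6J secretory cells at 3 months, 14 were tested in the held-out mice of the pools. All 14 had the same direction and 12 passed. *Chd9* had a log2 difference of 3.32 there and 3.85 against the single libraries, *Spink8* 2.39 and 2.00, *Pkib* 5.09 and 4.64, and *Ramp1* 2.04 and 3.01, each with an adjusted p under 0.05. Against the single libraries 17 of the 18 were tested, 16 had the same direction and 14 passed. Of the 7 genes higher in FVB/NJ other cells, 7 had the same direction in the pools and 6 passed, and 6 of 6 tested had the same direction against the single libraries, where 5 passed. *BC023719*, *Gdpd3*, *1600014C10Rik*, *Cenpm* and *Eif3j2* passed in both.

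The genes that were higher in FVB/NJ secretory cells divided. Of the 16, 14 were tested in the pools, 13 had the same direction and 10 passed. *Cenpm* differed by -6.57 and -5.73, *Tnfrsf21* by -1.75 and -1.42, and *Thyn1*, a nuclear protein, by -1.47 and -1.72 in the pools and against the single libraries. Against the single libraries 5 of 15 tested passed in the opposite direction: *Ly6d*, *Ly6e*, *Adamts1*, *Rps28* and *Rps29*. *Ly6d* differed by -2.77 at 3 months, 1.26 in the held-out pools (adjusted p = 0.176) and 4.47 against the single libraries (adjusted p = 0.000162). Its level varied within each strain. Secretory cells held 3.40 to 89.4 CPM of *Ly6d* (median 19.4) in the 8 C57BL/6J mice of 20 and 28 months, 5.39 to 23.9 CPM in the 6 held-out FVB/NJ mice of the pool and 0.494 to 1.60 CPM in the single libraries, without TMM scaling.

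**Figure D5:**
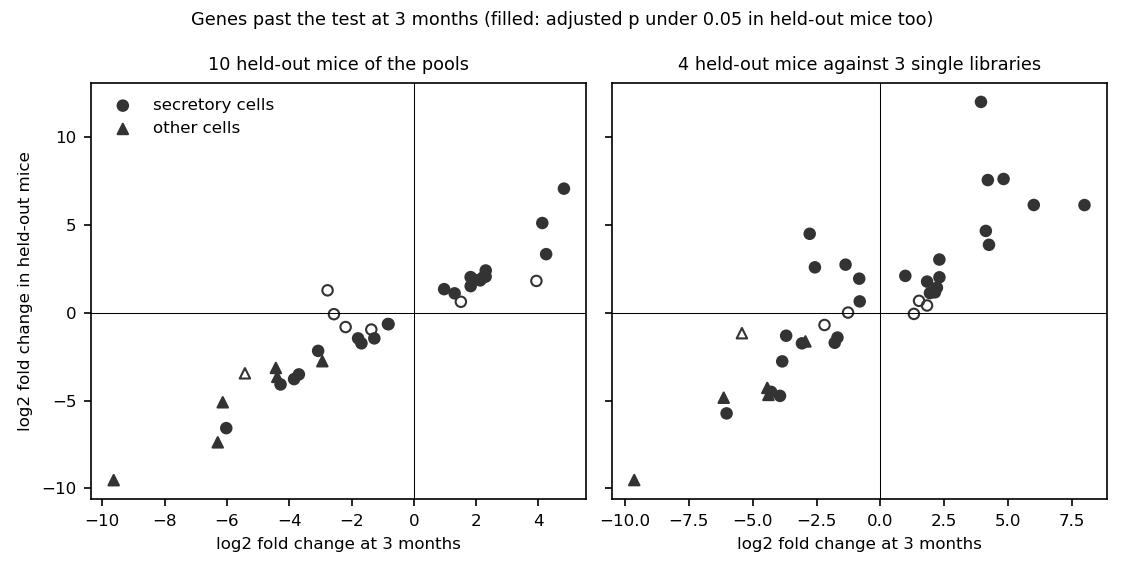
Log2 difference between strains at 3 months (x axis) against that in held-out mice (y axis), for the genes called at 3 months in secretory and in other cells, with filled points for an adjusted p under 0.05 in the held-out mice. Most points lie in the same quadrant on both axes, and the 5 genes of secretory cells that passed in the opposite direction include *Ly6d* at -2.77 and 4.47.

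The interferon list was also examined there. In other cells of the held-out pools 26 of 35 tested genes were higher in C57BL/6J and passed, with a median of 1.42 (beside 7.59% of all genes called), and against the single libraries 17 of 35 passed, with a median of 1.36 (beside 12%). Immune markers moved with these counts. Of 8 macrophage markers 5 passed in the pools, with a median of 1.28, and 8 against the single libraries, with a median of 3.30, all higher in C57BL/6J. Macrophages made up a mean of 18.2% of cells in the 4 C57BL/6J mice, 7.99% in the 6 FVB/NJ pool mice and 0.455% in the single libraries. Their part in the interferon counts was not tested. In secretory cells 2 of 11 listed interferon genes passed in the pools (beside 2.55% of all genes) and 17 of 23 against the single libraries (beside 18.8%). Markers of other cells moved with the latter count too: 7 of 7 basal, 4 of 4 macrophage and 3 of 3 T/NK markers tested passed in the same direction, with medians of 3.33, 3.93 and 2.81. *Ifit3* differed by 3.13 and 3.49 in the other cells of these comparisons, and *Irf7* by 1.87 and 1.61. Basal cells took 0.989% to 6.89% of cells in the 4 held-out C57BL/6J mice, 8.98% to 19.2% in the 6 FVB/NJ pool mice and 8.71% to 11.4% in the single libraries, with no overlap between strains. Smooth muscle took 0.494% to 2.79%, 4.40% to 19.8% and 0.404% to 0.546% in the same order, so its share in the single FVB/NJ libraries was as low as in C57BL/6J.

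A check of strain from known inherited differences was not informative. *Nnt*, part of which is deleted in C57BL/6J, had at most 7 UMIs in any mouse of the pools, and *Hc*, the complement C5 gene that is truncated in FVB/NJ, had at most 2. The strain of each pool therefore rests on its label.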

How the data were processed

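Whole seminal vesicles were dissociated and profiled with the 10x Genomics platform. The deposited values are UMI counts per gene and cell, which the authors made with Cell Ranger 6.0.1 for both multiplexed pools (32285 genes) and, per the submitters' processing notes, Cell Ranger 3.1.0 for single libraries (31053 genes), on mm10. Tag counts (12 features) were dropped, and the 30406 genes that share an Ensembl identifier were joined. Doublets were not called. Seurat is named in those notes without a version.

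Counts of kept cells were summed per mouse and tested with edgeR 4.0.16 (quasi-likelihood, TMM, low-count filter, Benjamini-Hochberg) in R 4.3.3, with 2 mice per strain in the fit. Gated classes needed 10 cells per mouse. Tests of the secretory sum on simulated counts recovered 82.6% of genes changed by a log2 of 2 over 7287 genes. Recovery was 70.9% in the other cells, and ran from 62.3% in the macrophage gate to 91.1% in the T/NK gate. All genes of a sum were simulated with the same dispersion, so a spread that differs between genes was not covered. The mice are separate animals, so p-values measure the spread between the animals of a pool.

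Members and gene lists were chosen with earlier results of these data known. Named genes were the 12 largest in each direction (5 for a gate) with an adjusted p under 0.05, no overlap and at least 10 UMIs per mouse of the higher strain, and list members. *Thyn1*, *Psmc3ip*, *Mapk13*, *Ubb*, *BC004004*, *Upk3b*, *Pi16*, *Epcam*, *Tspan8* and *Cenpm* and *Gdpd3* in secretory cells fall outside this rule and were named after their values were seen. Replicate numbers are tag names and pair no animals. Gene coordinates are GENCODE, GRCm38. Analyses used Python 3.11.15, NumPy 2.4.6, SciPy 1.17.1 and pandas 2.3.3, and DESeq2 1.42.0 as an alternative, beside other limits on cells, gates, scaling and filters. Values of some single genes are not reported here.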

Additional observations from a re-analysis of the deposited data

Results flagged for a closer look

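Mouse CR2, an FVB/NJ mouse on caloric restriction in the held-out set, stood far from the other 5 held-out mice of its pool in the share of secretory cells, 2.48%, and in that of T/NK cells, 8.31%. The 6 mice ran from 2.48% to 11.6% and from 3.14% to 8.31% for these classes. About 1 in 20 such groups is marked by chance. Other genes differed in their strain effect between cell types, by edgeR's test of secretory minus other cells on the log2 scale. *Rarres1* differed by 6.30, *Pkib* by 4.39, *Chd9* by 2.88 and *Ramp1* by 1.91, each with a larger C57BL/6J excess in secretory cells. For *Actg2* the value was 5.49 because its FVB/NJ excess of -5.42 in other cells was not present in secretory cells.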

How the results depend on the processing

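In secretory cells the 34 calls became 53 with 18 mice in the fit, 20 with DESeq2, 14 with a mitochondrial limit of 5%, 247 with no filter on low counts, 11 with a secretory limit of 50% and 3 when the mice were thinned to the lowest total. Leaving out 1 mouse gave 30 to 170. In other cells the 7 calls became 140 with 18 mice, 155 with DESeq2, 4 without TMM, 11 with a mitochondrial limit of 5%, 18 with no such limit, 755 with no filter, 33 in cells with at most 10% *Svs* UMIs, 51 with a secretory limit of 20% and 0 after thinning (798 at an unadjusted p under 0.05), and 6 to 419 without 1 mouse. The 146 genes of the test across cell types became 97 without TMM.

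With the replicate block the counts were 52 in secretory cells, 0 in other cells (953 at an unadjusted p under 0.05), 98 in fibroblasts, 0 in macrophages (113 unadjusted) and 25 in T/NK cells. The numbers only name tags: the correlation of same-numbered deviations was 0.00577 in secretory and -0.254 in other cells, and the crossed replicate block, chosen after seeing the data as the blocks of the gates were, gave 1010 calls in other cells.

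In the gates, DESeq2 gave 20 calls for basal cells (11 by edgeR), 30 for fibroblasts (62), 21 for macrophages (3) and 13 for T/NK cells (39). With no filter the first 3 were 117, 224 and 66. A gate of 4 markers gave 33 for fibroblasts and 13 for T/NK cells, and fibroblasts had 25 without TMM. Leaving out 1 mouse gave 0 to 207, 0 to 210, 3 to 164 and 52 to 87 in the same order, with the lone mouse assumed to vary like the other strain. Without TMM, held-out secretory cells had 113 calls in the pools (220 with it) and 5254 against single libraries (2833 with it).

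The FVB/NJ secretory share of 10.5% was 6.81% at a secretory limit of 50%, where the C57BL/6J basal share of 5.43% was 7.55% and the T/NK share of 7.48% was 7.76%. The latter was 7.13% with a mitochondrial limit of 5%, 7.19% with none, 6.93% at 200 genes and 6.77% with 4 markers, which put FVB/NJ fibroblasts at 9.48% in place of 14.6%. With no mitochondrial limit prostate-like cells were 9.18% (C57BL/6J) and 4.78% (FVB/NJ) in place of 5.79% and 2.23%.

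Over 57 named values and their 728 alternatives, none changed sign, 555 stayed past the threshold and 173 fell short of it. Depth limits Ctrl2 most, with 16 secretory cells.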

Other observations

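The genes called in secretory or other cells were 37 in all, and 5 of them lay on chromosome 17 (13.5%), beside 560 of the 11392 genes tested (4.92%). They were *Mapk13*, *Rps28*, *H2-Eb1*, *BC023719* and *Tnfrsf21*, with starts at 28769297, 33819027, 34305867, 36111426 and 43016555 in GRCm38. Chromosome 15 held 4 of the 37 (10.8%), beside 3.92% of the genes tested. These counts were made after the genes had been seen and have no test. In secretory cells *Cd74* was at 21.0, 25.6 and 15.8 CPM in Y1, Y2 and Ctrl1 and at 508 CPM in Ctrl2, from 218 UMIs in 16 cells.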
